A study of Bos taurus with 2 samples.

Results

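Macrophages of the fetal longissimus thoracis (LT) muscle were followed through 10 genes, namely the 3 chains of the complement protein C1q (*C1QA*, *C1QB* and *C1QC*) and 7 genes used to recognize macrophages (*CD68*, *CD163*, *MRC1*, *CSF1R*, *CD14*, *AIF1* and *TYROBP*). The genes were chosen by symbol, and a probe belonged to a gene when its accession matched that symbol. On the bovine Agilent array, 9 of the 10 genes had a probe, and no accession matched *MRC1*, the mannose receptor. The 9 genes had 13 probes, and both arrays detected 12 of these well above background. In all, 19554 genes of the series had a value. The high-nutrition (HN) pool held the RNA of 4 Japanese Black fetuses whose dams received 120% of the nutritional requirement through gestation, and the low-nutrition (LN) pool that of 4 fetuses whose dams received 60%. All were sampled at 8.5 months (day 260 ± 8.3 of gestation) and came from male-sorted semen of the same sire. Because the fetuses with the highest bodyweight were taken for the HN pool and those with the lowest for the LN pool, diet and selection by weight cannot be told apart. Each pool was measured on 1 array, so the differences have no replicate check, no test was possible, and how single fetuses vary was not measured.

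Macrophages live among the fibers and vessels of skeletal muscle, where they clear debris and take part in growth and repair. They depend on signals through the CSF1 receptor, and they are a main source of C1q, unlike most complement proteins, which are made in the liver. C1q is assembled from A, B and C chains, binds immune complexes and dying cells, and starts the classical complement pathway together with the proteases C1r and C1s. In whole muscle, fewer cells of a type and less RNA per cell cannot be told apart.

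For each probe the deposited intensity is given for either pool, followed by log2 LN/HN after quantile normalization, which is negative where LN was lower. The array software put the error of most of these probes at about 10% per array, or 0.20 on log2 LN/HN. Repeated spots of 42 probes varied with an SD of 0.085 in log2 LN/HN, which places 95% of them within 0.17 of their mean. Both errors cover the array and not the animals. The brightness of different probes depends on the probe and is not compared between genes. All 12 skeletal muscle markers with a probe were detected. Chromosome positions are not given, since the array was designed on UMD 3.1 and the gene table used for names is of another assembly.

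All 3 C1q chains were lower in the LN pool, by 1.23-fold to 1.37-fold. *C1QA* was measured by a pair of probes, both for NM_001014945. The first (A_73_118275) had an intensity of 4239 for HN and 3545 for LN, and the second (A_73_P116901) had 372 and 308. Both gave a log2 LN/HN of -0.29 ± 0.20 (± software error), so the probes did not disagree. *C1QB* (A_73_P040251, NM_001046599) had intensities of 2012 for HN and 1521 for LN, and its log2 LN/HN of -0.45 ± 0.20 was the largest difference among the 9 genes. *C1QC* (A_73_P095526, NM_001206396) had 1833 and 1433, which gave -0.40 ± 0.20. These probes were far from the limit of detection, and each was brighter on the HN array than at least 61.7% of the probes detected on both arrays. In the gene table *C1QC* and *C1QA* are neighbors, and 1 further gene lies between *C1QB* and *C1QC*. The difference between *C1QB* and *C1QA* (-0.16 ± 0.25) was within the software error, so the chains could not be ranked.

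**Figure D1:**
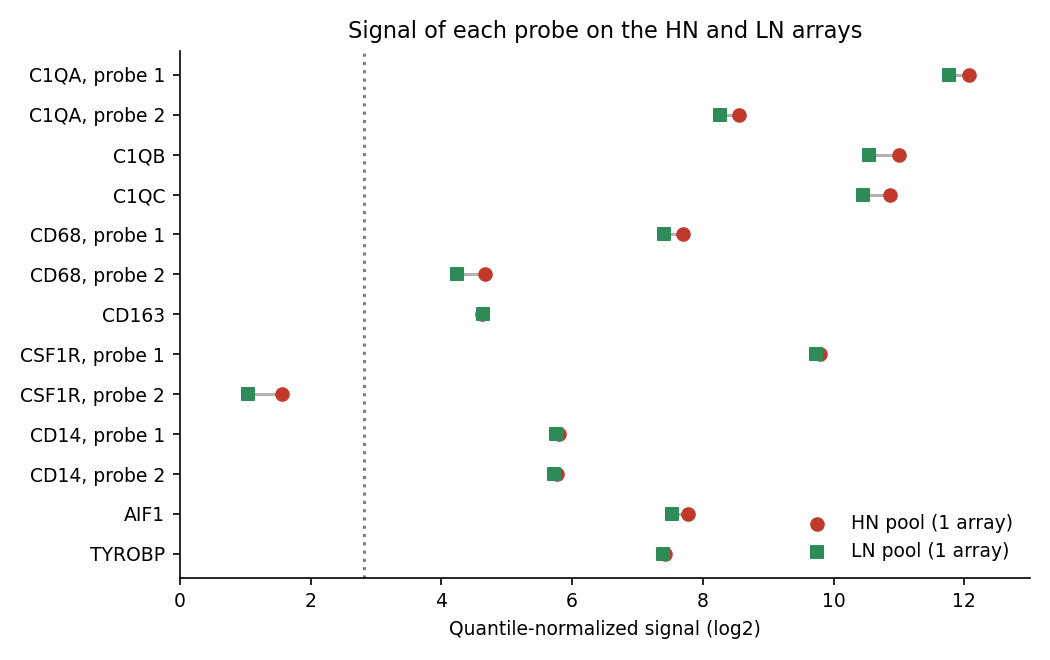
Quantile-normalized log2 signal (horizontal axis) of each of the 13 probes for HN (circles) and LN (squares), 1 array each, with the dotted line at the lowest signal called well above background on the LN array (2.82). The symbols of the C1q chains, *CD68* and *AIF1* lie apart, whereas they nearly coincide for *CD163*, *CD14*, *TYROBP* and the bright probe of *CSF1R*.

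Of the scavenger and endocytic receptors, *CD68* was lower in the LN pool, and the values of *CD163* nearly coincided. *CD68* encodes a lysosomal glycoprotein of phagocytes. Its first probe (A_73_P399391) had an intensity of 206 for HN and 171 for LN, which gave -0.28 ± 0.20. The other probe (A_73_106271) was dim, with 25.9 and 18.3, and gave -0.42 ± 0.25. The mean of both was -0.35 ± 0.16, and LN was 1.28-fold lower. *CD163* encodes the receptor with which macrophages take up hemoglobin bound to haptoglobin. Its only probe (A_73_P474123) was also dim, with 25.2 for HN and 24.4 for LN, and gave 0.02 ± 0.23, a range of -0.21 to 0.25 that includes 0.

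Neither *CSF1R*, by its bright probe, nor *CD14* differed beyond the array error. *CSF1R* encodes the receptor for CSF1 and interleukin-34, on which macrophage survival depends. Its bright probe (A_73_P045266) had an intensity of 873 for HN and 859 for LN, which gave -0.06 ± 0.20. The second probe of *CSF1R* (A_73_P290976) was not well above background on either array (3.36 and 1.80) and was left out. In the 2 settings that counted this probe, *CSF1R* had -0.30, the lowest of its range over the 12 settings (-0.30 to -0.00067). *CD14* encodes a coreceptor for lipopolysaccharide on monocytes and macrophages. Its probes had 56.3 and 53.6 (A_73_116002) and 54.7 and 52.4 (A_73_P108626), for a log2 LN/HN of -0.05 ± 0.21 and -0.04 ± 0.21.

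The remaining genes encode a cytoskeletal and a signaling protein, and the former was lower in LN by more than its own array error. *AIF1* encodes the actin-binding protein IBA1 of macrophages and microglia. Its probe (A_73_115426) had an intensity of 216 for HN and 187 for LN, and LN was 1.18-fold lower (-0.24 ± 0.20). *TYROBP* encodes DAP12, the adaptor through which TREM2 and other receptors of myeloid cells signal. Its probe (A_73_P030636) had 171 and 168, which gave -0.04 ± 0.20. As processed here, the values of *C1QA*, *C1QB*, *C1QC*, *CD68* and *AIF1* thus exceeded both the software error and the range of repeated spots. Those of *CSF1R*, *CD14*, *TYROBP* and *CD163* lay within both. The share of all genes beyond these limits was not counted, so it is not known how unusual such values are.

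**Figure D2:**
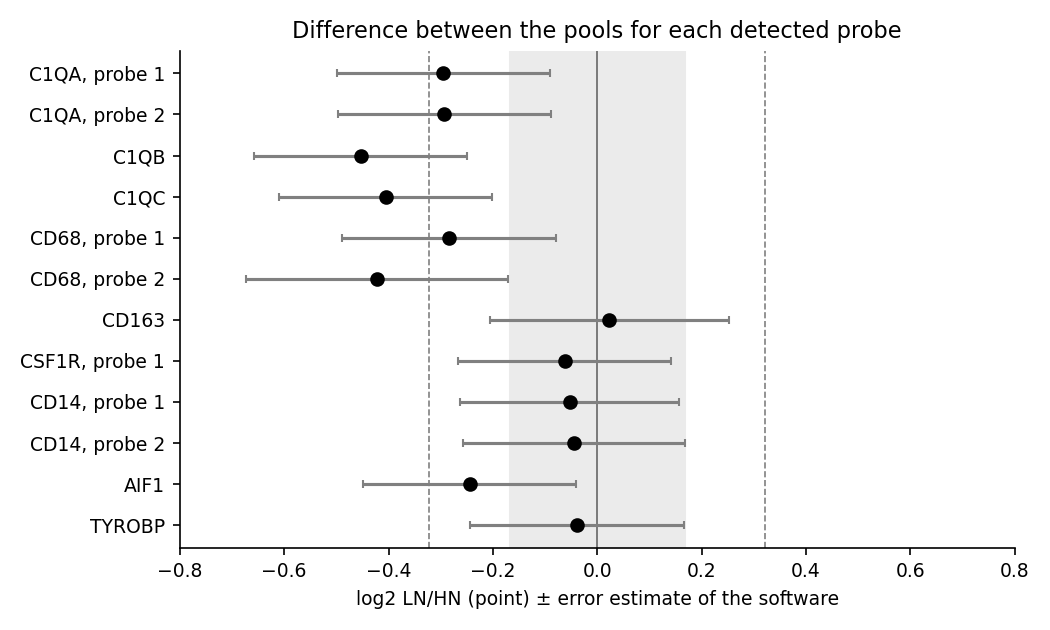
Log2 LN/HN (horizontal axis) of the 12 detected probes, with bars for the software error, a gray band for the 95% range of repeated spots (0.17 to either side) and dashed lines at 0.32 to either side. The 7 probes of the C1q chains, *CD68* and *AIF1* lie between -0.45 and -0.24, and the other 5 between -0.06 and 0.02.

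Over the 9 genes the median log2 LN/HN was -0.24, against -0.0033 over all genes. LN was lower for 8 of the 9 genes, where it was lower for 50.7% of all genes, and for 11 of the 12 probes, where it was lower for 50.1% of all probes. Differences were counted as calls when they exceeded 0.32 in log2 LN/HN, the fold change that the study used for its pathway analysis. Downward, 3 genes passed it (*C1QB*, *C1QC* and *CD68*), beside 9.11% of all genes, and 3 of the 12 probes did, beside 9.44% of all probes. Upward, 0 of the 9 genes passed it, beside 8.85% of all genes. In the ranking of all genes, 4.55% lay below *C1QB*, 5.84% below *C1QC*, 7.69% below *CD68*, 10.6% below *C1QA* and 13.8% below *AIF1*. The other 4 genes lay in the middle of the ranking, between 38.1% and 55.5%. The genes do not stand for independent samples, because all come from the same pair of pools.

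The C1q chains kept their direction over 12 other ways to process the arrays, with values from -0.46 to -0.40 for *C1QB*, -0.43 to -0.35 for *C1QC* and -0.31 to -0.27 for *C1QA*. *AIF1* ranged from -0.25 to -0.18, and at -0.18 it lay within its software error of 0.20. *CD68* had -0.13 after the normexp background correction with an offset of 50. *CD163* changed sign between settings (-0.08 to 0.07), as did *CD14* (-0.10 to 0.04). The scaling of an array acts on all its genes, so a comparison of genes within the arrays depends less on it. *C1QB* lay below *CSF1R* in log2 LN/HN (difference -0.39 ± 0.29), but where the dim second probe of *CSF1R* was counted the difference was -0.16 ± 0.29, within the error. For *C1QA* the difference from *CSF1R* was -0.23 ± 0.25, also within the error, and 0.0029 with that probe.

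**Figure D3:**
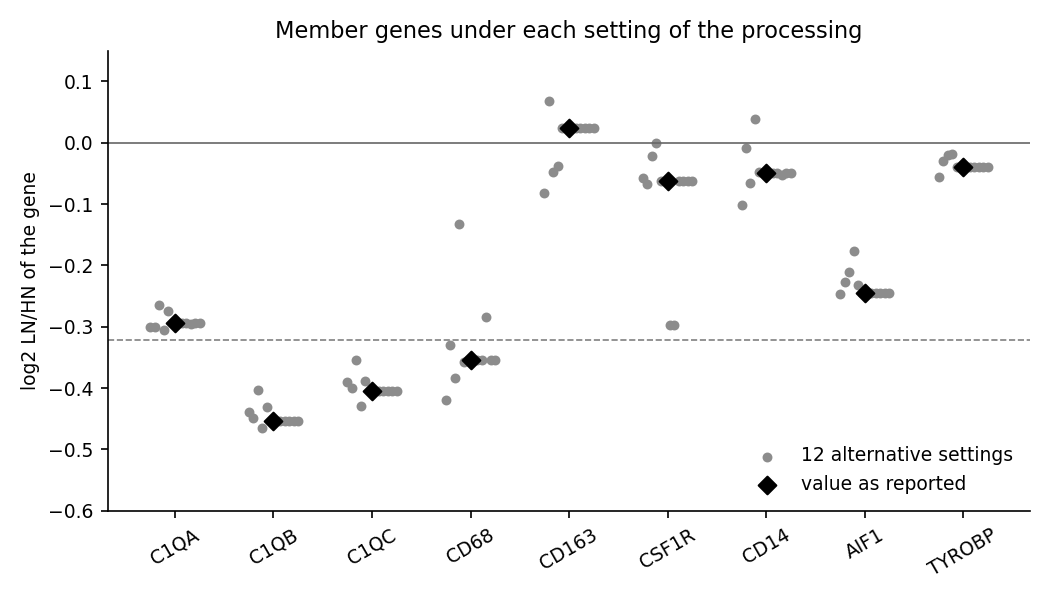
Log2 LN/HN (vertical axis) of the 9 genes as reported (diamonds) and under 12 alternative settings (gray points), with the dashed line at -0.32. The points of the C1q chains and *AIF1* stay close to the reported values, and those of *CD163* and *CD14* lie on either side of 0.

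The other complement genes lay mostly on the opposite side from the C1q chains. Of 42 further complement genes, 28 had a value, 10 lower and 18 higher in LN, with a median log2 LN/HN of 0.16. LN was thus lower for 35.7% of them, beside 50.7% of all genes. Past 0.32 were 9 genes upward and 2 downward, beside 8.85% and 9.11% of all genes. *C1S*, the protease that is bound to C1q, had 0.20, and its 3 probes lay between 0.05 and 0.28. No probe matched *C1R*, its partner. The next components of the classical pathway were higher. *C4A* went from a log2 signal of 7.86 for HN to 8.71 for LN, a difference of 0.85 with 4 probes between 0.77 and 0.93, and near-identical copies of C4 may share its probes. *C2*, the protease that C4 binds, had 0.55 from 1 of its 2 probes.

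Factor B, which serves in the alternative pathway as C2 does in the classical one, showed the largest difference of the 28 genes. *CFB* went from a log2 signal of 7.32 for HN to 8.48 for LN, a difference of 1.16, and all 4 probes lay between 0.77 and 1.39. *C6* (0.61) and *C7* (0.36), components of the membrane attack complex, were also past 0.32, each from 1 probe. *C3*, the central component, had 0.22, but its probes ranged from -0.28 to 1.11 and 3 of the 6 were at the limit of detection on an array. *CFP*, encoding properdin, a stabilizer of the alternative pathway that is made by leukocytes, had -0.50, the mean of a detected probe (-0.32) and a probe that was dim on the LN array (-0.67). *C8A*, for a chain of the attack complex, was past -0.32 from 1 probe at the limit (-0.33), and had -1.31 with dim values as measured. After the normexp correction *CFP* had -0.22 and *C8A* -0.21, and neither was past the threshold.

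Among the regulators, *CD55* (0.37) and *C4BPA* (0.33) were past 0.32, and *CD59* had -0.31. These encode proteins that restrain C3 activation or, for *CD59*, the attack complex. Of the complement receptors, *C5AR2* (0.38) was past 0.32, while *VSIG4* (-0.15), a receptor for C3b on resident macrophages, and *ITGB2* (-0.12) were not. *C4A*, *C2*, *CFB*, *C6*, *C7*, *CD55*, *C4BPA* and *C5AR2* were higher in LN under all 12 other settings. After the normexp correction *C4A* (0.63) and *CFB* (0.78) were still past 0.32, while *C2* (0.23), *C6* (0.27), *C7* (0.31), *CD55* (0.29), *C4BPA* (0.13) and *C5AR2* (0.085) were not.

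**Figure D4:**
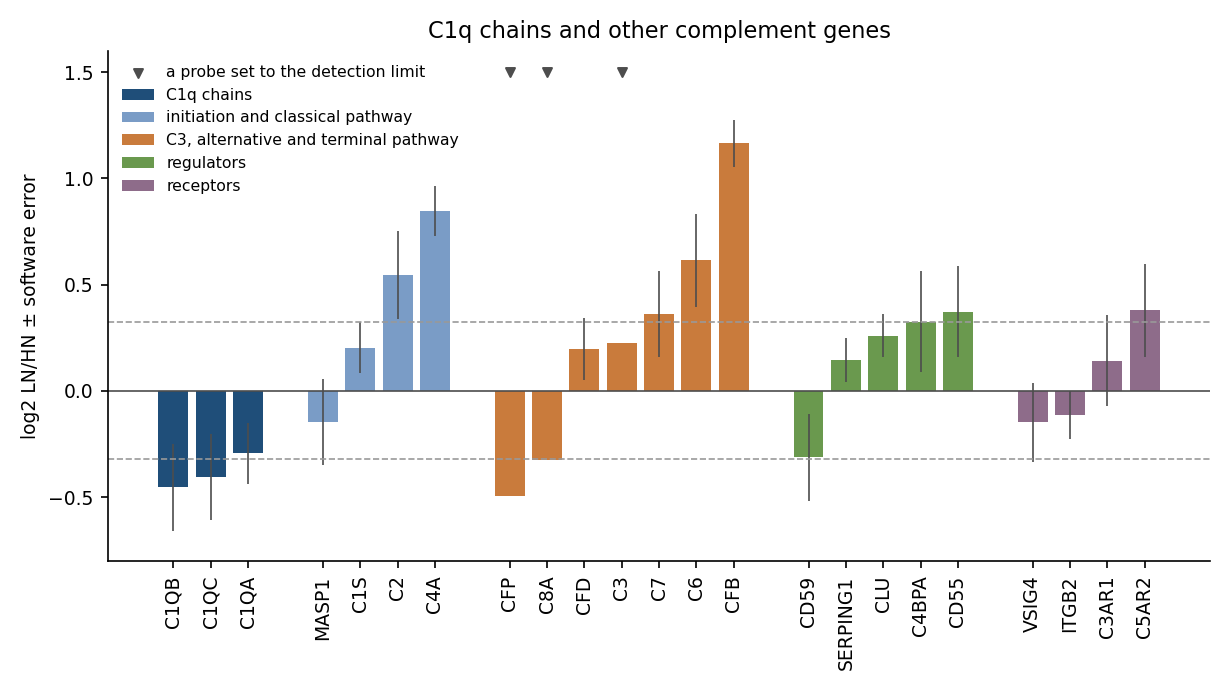
Log2 LN/HN (vertical axis) of the C1q chains and of other complement genes grouped by their place in the pathway, a selection of those with a value, with bars for the software error and dashed lines at 0.32 to either side. Triangles mark genes with a probe at the limit of detection, for which no error is drawn. The C1q chains lie below 0, and *CFB*, *C4A*, *C6* and *C2* are the highest.

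Genes that act with the receptors were examined next. In the CSF1 receptor axis, 9 genes had a value, 6 lower and 3 higher, with a median of -0.04. Only *MAF* (-0.36), a transcription factor gene of macrophages and other cells, was past -0.32, and it had -0.29 at its weakest setting. The ligand genes *IL34* (-0.26) and *CSF1* (-0.15) and *SPI1* (-0.20), which encodes the transcription factor PU.1, were not. *CSF1*, *SPI1*, *FCER1G*, *TREM2* and *PTPRC* are named for their role and were chosen after their values were seen. *CSF1* was higher in LN in 2 of the 12 other settings, those that counted its dim second probe (0.44).

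For the partners of TYROBP and of the related adaptor FCER1G, 15 genes had a value, 10 lower and 5 higher, with a median of -0.16. Those past -0.32 included *CLEC7A* (-0.74), *SYK* (-0.62) and *FCGR3A* (-0.48), and 0 genes were past 0.32 upward. *CLEC7A* encodes a receptor for fungal glucans, *FCGR3A* a receptor for antibodies, and *SYK* a kinase that acts below such receptors. All 3 were dim, with log2 signals from 3.56 to 4.31 for HN, and after the normexp correction they had -0.03, -0.09 and -0.10. The value of *CLEC7A* rests on 1 of its 2 probes, with its LN side at the limit of detection. The other was detected on HN only and too dim to give a fold, with log2 signals of 2.57 for HN and 2.61 for LN. *TREM2* had 0.07 and *FCER1G* -0.16.

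CD14 acts with the Toll-like receptors, and in this list 12 genes had a value, 7 lower and 5 higher, with a median of -0.10. *CD180*, a relative of TLR4 found on B cells and macrophages, had -1.08, which made LN 2.12-fold lower, from 1 of its 2 probes, and -0.22 after the normexp correction. *LBP*, whose product passes lipopolysaccharide on to CD14, had -0.35, but its 4 probes ranged from -1.07 to 0.16. *TLR4* (-0.17) and *TLR2* (0.0021) were not past 0.32.

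In the list of hemoglobin scavenging and iron handling, to which the ligand of CD163 belongs, 8 of 10 genes were lower without passing -0.32, and 2 passed it upward. These were *HP*, encoding haptoglobin, with 1.00 and 3 probes between 0.88 and 1.15, and the transferrin receptor gene *TFRC*, with 0.80 and 3 probes between 0.77 and 0.84. *HMOX1*, encoding heme oxygenase, had -0.22. *HP* was dim (log2 signal 3.38 for HN) and had 0.22 after the normexp correction.

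Other genes of resident macrophages were spread to both sides. Of the 28 listed, 23 had a value, 15 lower and 8 higher, with a median of -0.07. *CX3CR1*, the fractalkine receptor gene, had -0.61, the mean of a detected probe (-0.31) and a probe that was dim on the LN array (-0.92), and *SPP1* (-0.49) and *CD209* (-0.32) were also past the threshold. After the normexp correction these 3 genes lay between -0.15 and -0.06. *LYVE1* (0.36, 3 probes from 0.09 to 0.67, and 0.23 after normexp) and *GPNMB* (1.55) were past it upward. *FOLR2* (-0.22), a folate receptor gene of resident macrophages, and *APOE* (-0.16) were not past it.

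Genes of myeloid cells and leukocytes in general were mostly lower. Of 19 with a value, 16 were lower, with a median of -0.22. *NCF4* (-0.67) and *CYBB* (-0.35), both for subunits of the phagocyte NADPH oxidase, *CORO1A* (-0.45) and *CD53* (-0.44) were past -0.32. Of the probes of *CD53*, those detected on both arrays gave -0.27 and -0.40, and the third, dim on the LN array, gave -0.66. After the normexp correction these 4 genes lay between -0.32 and -0.14, and none was past the threshold. *PTPRC*, encoding the leukocyte antigen CD45, had -0.22, with 3 probes from -0.29 to -0.16. Without the 9 genes, the lists of macrophage and leukocyte genes had 94 genes with a value. LN was lower for 70.2% of these, beside 50.7% of all genes. Past the threshold were 17 downward and 3 upward, beside 9.11% and 8.85% of all genes.

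Markers of other cell types also differed between the pools, and their part in the values of the 9 genes was not tested. The endothelial markers had a median log2 LN/HN of -0.25, with 10 of 11 lower, beside -0.24 for the 9 genes. Those of skeletal muscle had a median of -0.20, with 9 of 12 lower, and -0.06 when the brightest probe of each gene was taken. Fibroblast markers were higher for 9 of 9 genes, with a median of 0.33. Neutrophil markers had a median of 0.76, with 8 of 11 past 0.32 upward, beside 8.85% of all genes. The signals of each list were also summed and then put on the log2 scale, where the brightest genes weigh most. For the neutrophil markers this gave 10.6 for HN and 11.4 for LN, for fibroblasts 14.6 and 14.9. Endothelial cells had 13.2 and 12.9, muscle 20.2 and 20.1, and the 9 genes 12.7 and 12.4.

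**Figure D5:**
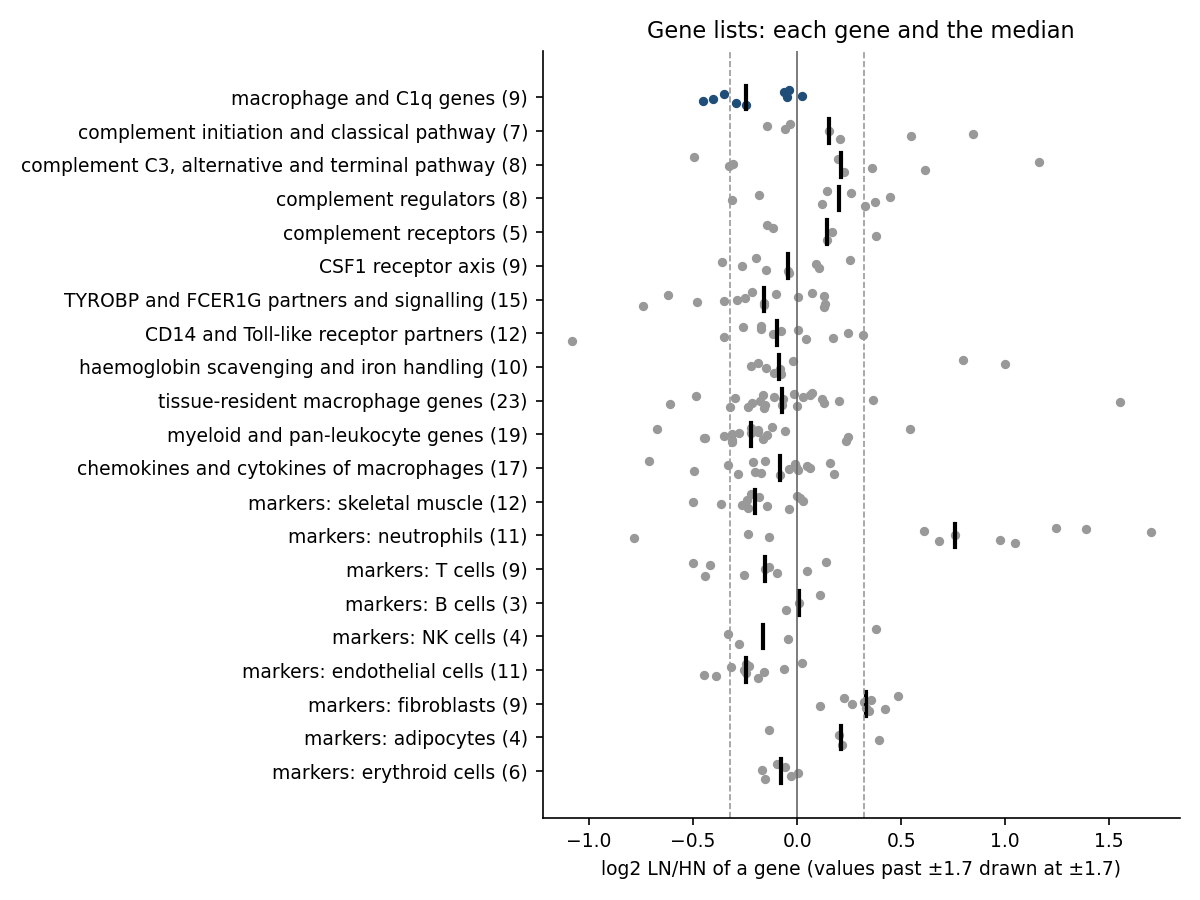
Log2 LN/HN (horizontal axis) of each gene in the 9 macrophage and C1q genes and in 20 lists, with black bars at the medians, dashed lines at 0.32 to either side, and the number of genes with a value in parentheses (*MPO*, a neutrophil gene with 3.11 from 1 probe that was dim on the HN array, is drawn at the right edge). The medians of the macrophage and C1q genes (-0.24), the leukocyte genes (-0.22) and the endothelial markers (-0.25) lie side by side, and those of fibroblasts (0.33) and neutrophils (0.76) lie above 0.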

How the data were processed

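RNA of 4 fetuses was pooled for each group and hybridized to 1 one-color array. The authors deposited spot intensities (processed signals with the background subtracted), with flags and error estimates, from Agilent Feature Extraction 11.0.1.1 per the submitters' processing notes, and log2 values for 30027 probes after quantile normalization in GeneSpring GX. Here the log2 intensities of 43803 spots other than controls were quantile-normalized (limma 3.58.1, R 4.3.3), following the study. Spots with an outlier flag (13) were removed, spots of a probe were averaged (43652 probes), and probes well above background on at least 1 array were averaged per gene. For a probe detected on a single array, the other array took its lowest detected signal (log2 2.27 for HN, 2.82 for LN), or the measured value where higher. Gene values that rest on such probes are said to do so. Of the spots, 74.5% (HN) and 70.9% (LN) were well above background, and 0 were saturated. The number of arrays limits the precision. Accessions were matched to symbols in the RefSeq table of ARS-UCD2.0 (26742 probes, 12603 symbols), used only for names and neighbors.

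Gene errors propagate the software's estimates over probes and arrays. The members, the 20 lists (264 genes, written by hand) and the 12 alternative settings were chosen with earlier results of these data known. Named genes were the members, list genes past a log2 difference of 0.32, up to 4 of the brightest others per list, and those said to be named for their role. The normexp correction used the median spot signal and added an offset of 50, which shrinks the log2 differences of dim probes. In simulated arrays with 200 changed genes of 19343, 100 of 100 genes changed 2-fold and 98 of 100 changed 1.5-fold passed 0.32. Some genes of the lists are counted but not reported by name here.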

Additional observations from a re-analysis of the deposited data

How the results depend on the processing

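Over the 12 alternative settings, the median log2 LN/HN of the 9 genes ranged from -0.29 to -0.13 and that of the C1q chains from -0.43 to -0.35. The number of the 9 genes higher in LN, 1 as reported, was 0 with arrays scaled to their 75th percentile and 0 without normalization. Past 0.32 downward, all genes gave 1781 as reported, 2693 with 75th percentile scaling, 386 after the normexp correction, 3777 with probes that were positive and significant over background, and 3592 with dim probes unfiltered. Past 0.32 upward, they gave 1731 as reported, and 319, 3125 and 3251 with the last 3 of these settings. The upward share of such genes, 49.3% as reported, was 30.7% with 75th percentile scaling and 39.3% without normalization. The log2 LN/HN of *IL1RN* was 0.055 with dim probes unfiltered, and that of *LBP* 0.16 with its brightest probe. The causes were not tested. Dim probes (*CD163*, the second probe of *CD68*) limit what can be said of those genes. No paired analysis was possible because each group has 1 array.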

Other observations

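Among chemokines and cytokines of macrophages, 17 genes had a value, 12 lower and 5 higher in LN, with a median log2 LN/HN of -0.08. *IL1RN*, encoding the antagonist of the interleukin-1 receptor, had -0.71 from 1 of its 3 probes, *CCL8* -0.50 from a pair of probes (-0.60 and -0.39) and *IL10RA* -0.33, and 0 genes were past 0.32 upward. After the normexp correction *IL1RN*, *CCL8* and *IL10RA* had -0.20, -0.16 and -0.005. *CCL2*, whose product draws monocytes into tissue, had -0.08. *CCR2*, *IL6* and *TNF* were not well above background on either array.

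T cell markers had a median of -0.15 over 9 genes, with *LCK* (-0.50), *CD2* (-0.44) and *CD8A* (-0.42) past -0.32, and these 3 had -0.19, -0.09 and -0.11 after the normexp correction. B cell markers had a value for 3 genes, between -0.05 and 0.11. NK cell markers had a median of -0.16 over 4 genes, which ranged from -0.30 to 0.17 over the alternative settings. Adipocyte markers had a median of 0.21 over 4 genes. Erythroid markers had a median of -0.08 over 6 genes, between -0.17 and 0.0021.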
